A study of Mus musculus with 33 samples.

Results

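A group of 10 guidance genes was followed in the ganglionic eminences of Dlx1/2 knockout and wild-type mouse embryos: the secreted class 3 semaphorins Sema3a, Sema3c and Sema3f, their co-receptors Nrp1 and Nrp2, the class A plexins Plxna1, Plxna2, Plxna3 and Plxna4, and Plxnd1. They were chosen by name, and all 10 were present among the 14664 gene symbols of the count table, each matched by its exact symbol. The ganglionic eminences are the swellings of the embryonic ventral forebrain that produce striatal neurons and GABAergic interneurons. The knockout group held 4 libraries from Dlx1/2-/- embryos and the wild-type group 4 libraries from WT embryos, all of the CD1 strain at e13.5. The labels state 2 males and 2 females per genotype without saying which library came from which embryo. The knockout removes both genes from the whole embryo and is not confined to a cell type. The series also holds 25 chromatin samples, which were not analysed here.

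Class 3 semaphorins are secreted guidance proteins that mostly repel growing axons and migrating neurons. They bind a neuropilin, which has little signalling of its own, and a plexin of class A or plexin-D1 passes the signal to the cytoskeleton. In the embryonic ventral forebrain, semaphorins 3A and 3F of the developing striatum are known to repel neuropilin-bearing interneurons on their way to the cortex. DLX factors are known as direct repressors of Nrp2 in the mouse forebrain.

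Promoter windows are shown for the receptor genes on which the results turn, Plxna2 and Nrp1, and for Nrp2 as the known DLX target among the 10. Each runs from 250 bases before to 50 bases after an annotated start, on the plus strand, from RefSeq on build GRCm38.p6. The start used lies 0 bases from the start of the annotated gene for Nrp2, 38 for Plxna2 and 482 for Nrp1. The Nrp1 window therefore does not contain the start of the annotated gene. RefSeq windows were found for 7 of the 10 genes. The windows are chr1:194619579-194619878 for Plxna2, chr8:128358823-128359122 for Nrp1 and chr1:62703067-62703366 for Nrp2, and capitals mark TAAT, the core letters bound by many homeodomain proteins.
Plxna2: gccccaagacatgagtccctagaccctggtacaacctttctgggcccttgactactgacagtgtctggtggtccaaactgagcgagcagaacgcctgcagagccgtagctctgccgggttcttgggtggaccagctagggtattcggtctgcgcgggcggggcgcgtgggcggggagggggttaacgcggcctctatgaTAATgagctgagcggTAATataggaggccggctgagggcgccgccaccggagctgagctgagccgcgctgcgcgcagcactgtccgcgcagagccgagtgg
Nrp1: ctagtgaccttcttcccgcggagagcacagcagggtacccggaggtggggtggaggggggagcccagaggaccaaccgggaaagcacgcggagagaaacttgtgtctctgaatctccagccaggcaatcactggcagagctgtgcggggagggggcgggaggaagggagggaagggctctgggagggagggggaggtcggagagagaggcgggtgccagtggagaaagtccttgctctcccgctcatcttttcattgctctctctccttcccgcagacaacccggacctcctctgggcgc
Nrp2: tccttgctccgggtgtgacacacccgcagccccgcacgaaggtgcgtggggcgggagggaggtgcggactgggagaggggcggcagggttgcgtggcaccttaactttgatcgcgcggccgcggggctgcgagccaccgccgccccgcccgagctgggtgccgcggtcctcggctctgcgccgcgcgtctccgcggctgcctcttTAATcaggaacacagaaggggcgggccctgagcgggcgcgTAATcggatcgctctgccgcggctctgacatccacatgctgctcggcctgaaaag
TAAT, searched on both strands, stood in 2 places in the Plxna2 window, in 2 in the Nrp2 window and in none of the Nrp1 window, and 58% of 32851 promoter windows of the same length hold it. The longer TAATTA, a palindrome that contains TAAT on both strands, was in none of the 7 windows and in 5.29% of all windows. These matches are a description of the letters only. The window listed for Sema3a lies 271962 bases inside the annotated gene, so it is not shown.

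The libraries held between 14444752 and 48325231 counts in knockout and between 20184535 and 116989915 in wild type, and each of the 10 genes had at least 361 reads in every library. Levels are given as CPM, the read count of a gene relative to the library total after TMM scaling, which evens out differences in composition between libraries. Errors are SDs over 4 libraries, and log2 changes are knockout over wild type. Reads grow with transcript length, so levels are compared between genotypes and not between genes. The targeted genes checked the labels. Dlx1 was at 23.4 ± 1.97 CPM in knockout and 124 ± 4.53 CPM in wild type (SD, n = 4 each), and Dlx2 at 1.27 ± 0.255 CPM in knockout and 21.2 ± 5.85 CPM in wild type, both without overlap. In both genotypes replicates 3 and 4 stood apart from replicates 1 and 2. With genotype in the model, 44.7% of all genes tested differed between these replicate pairs, and 6 of the 10 did (edgeR adjusted p under 0.05). What sets the pairs apart is not given by the labels, so results are also given with the replicate number as a block and within each pair. The labels do not say that libraries of the same number belong together.

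These are bulk samples, in which fewer cells of a type and less RNA per cell cannot be told apart. Of the 10 genes, none passed the quasi-likelihood test of edgeR on genotype alone. A gene is termed called at an adjusted p under 0.05, and 1.48% of 14510 genes were (0.586% higher and 0.896% lower in knockout). Of the 10, Sema3a and Plxna2 had an unadjusted p under 0.05 in edgeR (2 of 10), as did 7.69% of all genes. When the replicate number was added as a block, 3 of 10 passed, beside 4.38% of all genes. Sema3a and Plxna2 were lower in knockout, as were 2.16% of all genes, and Nrp1 was higher, as were 2.22%. A term for the replicate pairs, added after the data were seen, called the same 3 genes, with 4.61% of all genes called (2.29% higher and 2.32% lower). DESeq2 on genotype alone called Sema3a and Plxna2 but not Nrp1, with 3.21% of all genes called (1.64% lower), and limma voom called none of the 10 and 1.62% of all genes. Replicates 1 and 2 alone gave Sema3a and Plxna2 as lower, with 2.6% of all genes called (1.38% lower), and replicates 3 and 4 alone gave Sema3a, with 1.41% called (0.819% lower). In the fits to all 8 libraries the log2 changes stayed near −0.45 for Sema3a, −0.31 for Plxna2 and 0.38 for Nrp1, while their errors were smaller with the block. In the authors' deposited table none of the 10 had an adjusted p under 0.05, beside 2.24% of all 14664 genes (147 higher and 181 lower in knockout), and Sema3a was nearest at 0.139. The median log2 change over the 10 was −0.064, beside −0.0027 over all genes tested.

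**Figure D1:**
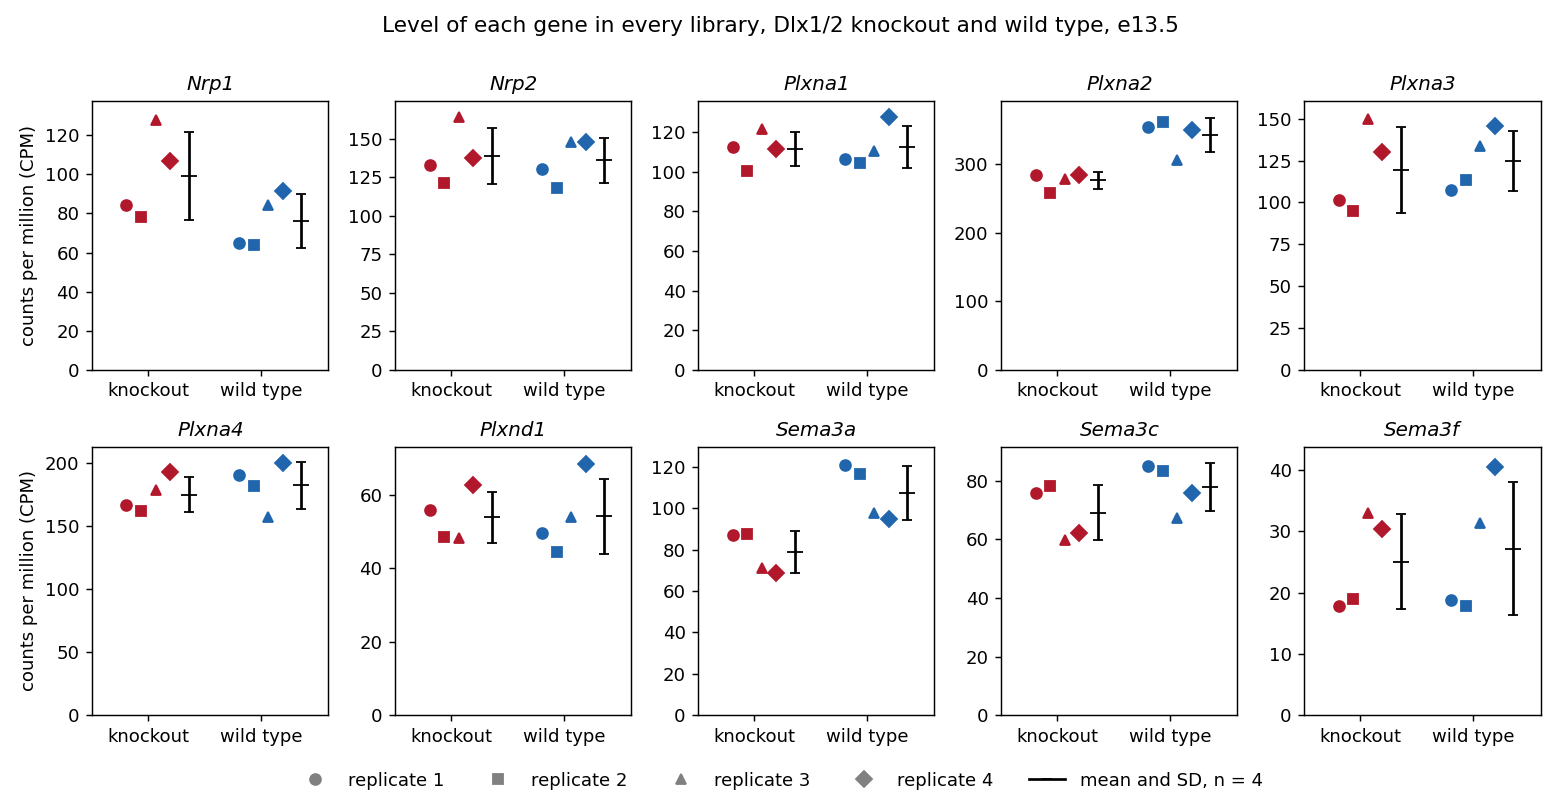
CPM of each of the 10 genes (vertical axis, starting at 0) in every knockout library (red, left) and wild-type library (blue, right). Marker shape gives the replicate number and the black bar the mean and SD of 4 libraries. Sema3a and Plxna2 do not overlap between genotypes, with Plxna2 at 258 to 284 CPM in knockout and 306 to 361 CPM in wild type.

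Among the ligands, Sema3a showed the largest change of the 10 genes. Sema3A is the repellent ligand that signals through neuropilin-1 with class A plexins. It was at 87.1, 87.7, 71.2 and 68.8 CPM in knockout replicates 1 to 4, and at 121, 116, 97.7 and 94.9 CPM in wild-type replicates 1 to 4. Every knockout library was below every wild-type library, a lack of overlap found in 2 of the 10 genes and in 5.98% of all genes. The knockout level was 73.3% of wild type (95% interval 60.9% to 88.2%), a log2 change of −0.45 (SE 0.12) with an edgeR adjusted p of 0.14 on genotype alone. With the replicate block the change was −0.45 with an SE of 0.05, at an edgeR adjusted p of 0.00047. Within replicates 1 and 2 it was −0.44 (edgeR adjusted p = 0.0093) and within replicates 3 and 4 it was −0.46 (edgeR adjusted p = 0.036). The same-numbered libraries differed by −0.47, −0.41, −0.46 and −0.46 on the log2 scale, the narrowest range of differences among the 3 genes called with the block.

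Sema3c, a class 3 semaphorin that acts through either neuropilin and can attract as well as repel, was at 76.0, 78.2, 59.9 and 62.2 CPM in knockout libraries and at 84.9, 83.5, 67.4 and 75.9 CPM in wild-type libraries. The genotypes overlapped, but each knockout library was below the wild-type library of the same number. It was 1 of 4 genes of the 10 whose 4 same-numbered differences had one sign, with Sema3a, Plxna2 and Nrp1, and 21.4% of all genes tested did so. Its log2 change was −0.17 (SE 0.12) and did not pass the test, also with the block (edgeR adjusted p = 0.17). Sema3f, the ligand of neuropilin-2, had 17.9, 18.9, 33.0 and 30.3 CPM in knockout libraries, against 18.9, 17.9, 31.4 and 40.6 CPM in wild-type libraries. Replicates 1 and 2 of both genotypes lay near 18 CPM and replicates 3 and 4 of both lay at 30.3 CPM or above, so the genotypes overlapped throughout. Its log2 change was −0.12 (SE 0.29), with a 95% interval from 58.3% to 145% of wild type, the widest of the 10. The summed level of the 3 ligands was 172.8 ± 11.8 CPM in knockout and 212.5 ± 12.02 CPM in wild type (SD, n = 4 each). The sums were 161 to 185 CPM in knockout libraries and 196.5 to 225 CPM in wild-type libraries, without overlap, and no test was made of this sum. Of the 3 only Sema3a did not overlap by itself, so the sum is not a result apart from Sema3a. Summed neuropilins overlapped, at 199 to 292 CPM in knockout and 182 to 239 CPM in wild type. Summed class A plexins also overlapped, at 616 to 729 CPM in knockout and 707 to 823 CPM in wild type.

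Of the co-receptors, Nrp1 was called with the block and Nrp2 was not. Neuropilin-1 is the binding partner of semaphorin 3A and of some VEGF forms. Nrp1 was at 84.3, 78.4, 128 and 107 CPM in knockout replicates 1 to 4, and at 65.0, 63.7, 84.4 and 91.2 CPM in wild-type replicates 1 to 4. The genotypes overlapped, since knockout replicates 1 and 2 lay below wild-type replicate 4, but each knockout library was above the wild-type library of its own number, by 0.38, 0.30, 0.60 and 0.23 on the log2 scale. The change was 0.38 (SE 0.18, edgeR adjusted p = 0.68) on genotype alone, or 130.4% of wild type with a 95% interval from 99.4% to 171%. With the replicate block it was 0.37 (SE 0.07, edgeR adjusted p = 0.011), or 129.6% with an interval from 117% to 144%. Without knockout replicate 3, its highest library, the change on genotype alone was 0.24 (edgeR adjusted p = 0.999). Within replicates 1 and 2 it was 0.34 (edgeR adjusted p = 0.074) and within replicates 3 and 4 it was 0.42 (edgeR adjusted p = 0.096), so neither pair alone passed.

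Nrp2, which binds semaphorin 3F and marks much of the migrating interneuron population, was at 133, 121, 164 and 137 CPM in knockout and at 130.3, 118, 148 and 148 CPM in wild type. The genotypes overlapped, and the level was 102% of wild type (95% interval 85.4% to 122%), a log2 change of 0.028 (SE 0.11). With the block the interval was 93.7% to 111% of wild type, so an increase of the size fitted for Nrp1 lies outside it, but the difference between these genes was not itself tested. As a share of all reads of both neuropilins, Nrp1 took 38.8%, 39.3%, 43.8% and 43.8% in knockout libraries and 33.3%, 35.0%, 36.3% and 38.2% in wild-type libraries. These shares did not overlap between genotypes. The shares of each class A plexin and of each of the 3 semaphorins within its own family did overlap. Plxna2 took 38.2% to 42.7% of class A plexin reads in knockout and 42.4% to 47.5% in wild type. Sema3a took 42.7% to 48.1% of the semaphorin reads in knockout and 44.9% to 53.8% in wild type. All these shares were computed after the levels were seen and carry no test.

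**Figure D2:**
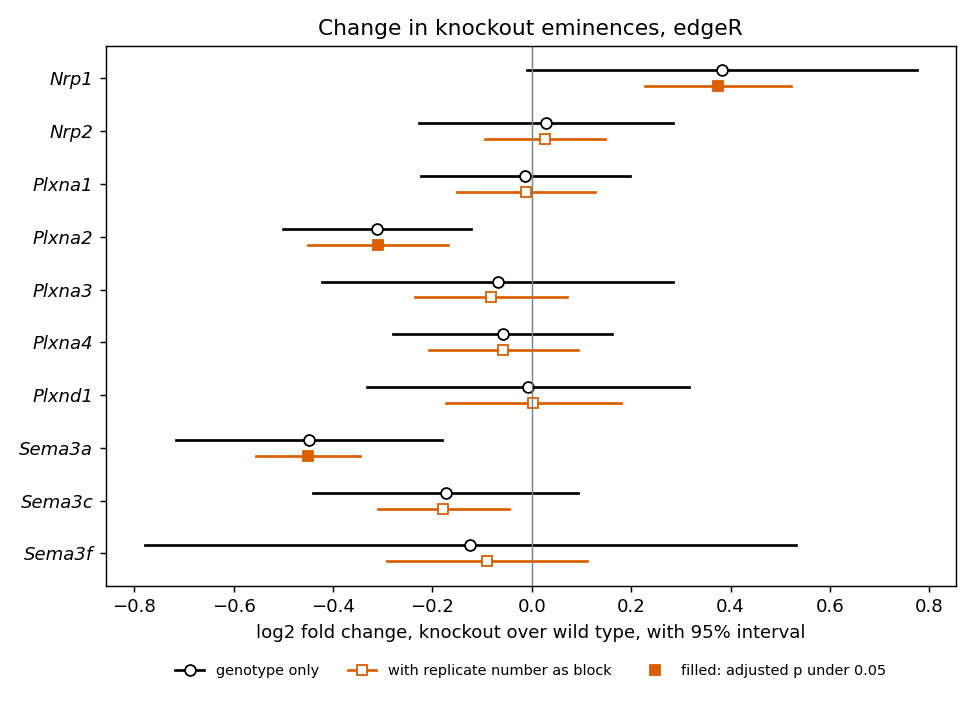
Log2 fold change of knockout over wild type for each gene, with its 95% interval not adjusted for the number of genes, from the edgeR fit on genotype alone (black circles) and with the replicate number as a block (orange squares). Filled symbols passed an adjusted p of 0.05: Sema3a (−0.45), Plxna2 (−0.31) and Nrp1 (0.37), all with the block.

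Among the plexins, the receptor chains that signal, Plxna2 was the one called with the block. It encodes plexin-A2, which forms receptors with neuropilins and also binds class 6 semaphorins directly. Its level was 284, 258, 279 and 284 CPM in knockout libraries and 355, 361, 306 and 349 CPM in wild-type libraries, without overlap. This is 80.6% of wild type (95% interval 70.7% to 91.9%), a log2 change of −0.31 (SE 0.08, edgeR adjusted p = 0.15 on genotype alone). With the block it was −0.31 with an SE of 0.06, at an edgeR adjusted p of 0.022. It was −0.40 within replicates 1 and 2 (edgeR adjusted p = 0.027) and −0.22 within replicates 3 and 4 (edgeR adjusted p = 0.54). The difference between those effects was 0.18 (SE 0.12, edgeR adjusted p = 0.9999 over all genes), a comparison added after the data were seen. In it edgeR called 0 of the 10 genes and 0% of all 14510 genes, and an unadjusted p under 0.05 was found for 0 of the 10 and 3.03% of all genes.

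The remaining plexins overlapped between genotypes. Plxna1, a receptor chain for semaphorin 3A, was at 101 to 122 CPM in knockout and 105 to 128 CPM in wild type, with a log2 change of −0.013 (SE 0.09). Plxna3, which pairs mainly with Nrp2 in semaphorin 3F signalling, was at 101, 94.9, 150.1 and 130.3 CPM in knockout and 107, 113, 134 and 146 CPM in wild type (log2 −0.069, SE 0.16). Its replicates 3 and 4 lay above replicates 1 and 2 in both genotypes. Plxna4, a receptor chain for semaphorin 3A in neurons, was at 162 to 193 CPM in knockout and 157 to 200.1 CPM in wild type (log2 −0.059, SE 0.10). The antisense gene Plxna4os1 was counted at 0.451 to 1.20 CPM in knockout and 0.594 to 0.940 CPM in wild type, and whether counting used strand is not stated in these sources. Plxnd1, the receptor for semaphorin 3E that is known from blood vessels and from neurons, was at 48.3 to 62.8 CPM in knockout and 44.6 to 68.5 CPM in wild type (log2 −0.0079, SE 0.15). The 95% intervals with the block ran from 90.2% to 109% of wild type for Plxna1, 84.95% to 105% for Plxna3, 86.6% to 107% for Plxna4 and 88.7% to 113% for Plxnd1.

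**Figure D3:**
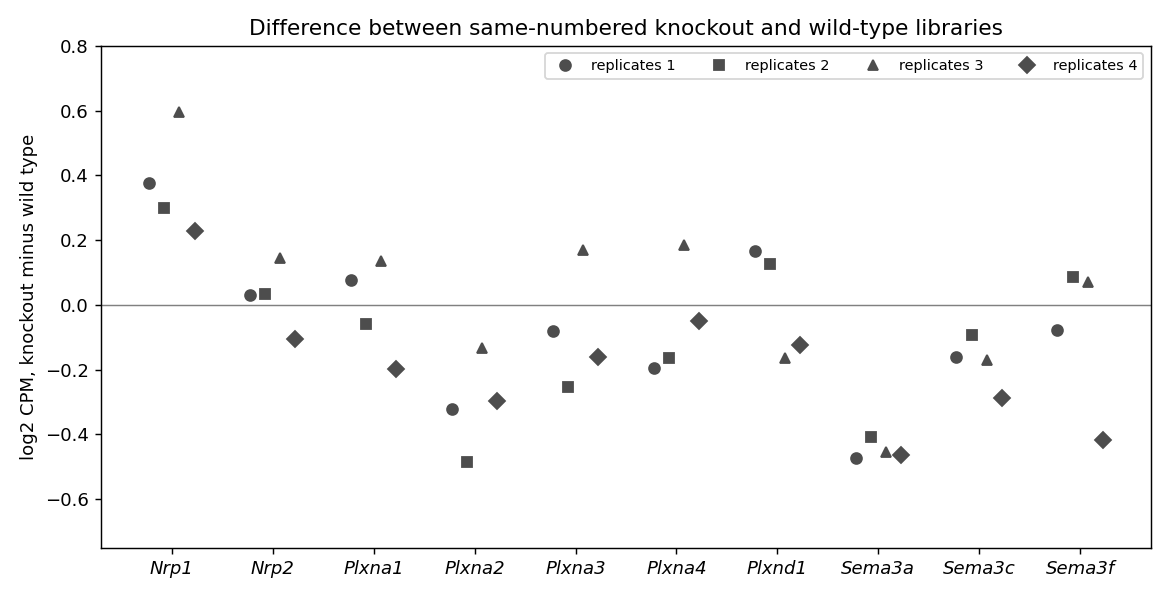
Difference in log2 CPM between the knockout and the wild-type library of the same replicate number, for each gene, with 1 marker per number. The markers lie all below 0 for Sema3a, Plxna2 and Sema3c, all above 0 for Nrp1 and on both sides for the other 6 genes.

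For most of the 10 genes the replicate pairs differed by more than the genotypes did, with Sema3a and Plxna2 as exceptions. The median size of the log2 difference of replicates 3 and 4 from replicates 1 and 2, over the 10 genes, was 0.28 in knockout and 0.28 in wild type, beside a median size of 0.096 for the genotype change. Sema3f was higher in replicates 3 and 4 by 0.78 in knockout and 0.96 in wild type on the log2 scale. Nrp1 was higher by 0.52 in knockout and 0.45 in wild type, and Plxna3 by 0.51 in knockout and 0.34 in wild type. Sema3a moved the other way, by −0.32 in knockout and −0.30 in wild type, and Sema3c by −0.34 in knockout and −0.24 in wild type. With genotype in the model these 5 genes and Nrp2 (0.25) passed the test of this difference (edgeR adjusted p from 3.4e-05 to 0.0083), while Plxna1, Plxna2, Plxna4 and Plxnd1 did not. Summed levels of 18 endothelial genes differed between replicates in the same way in both genotypes, at 255, 232, 333 and 314 CPM in knockout replicates 1 to 4 and 249.97, 253, 351 and 329 CPM in wild-type replicates 1 to 4. Their part in the replicate difference of Nrp1, which vessels are known to express, was not tested.

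**Figure D4:**
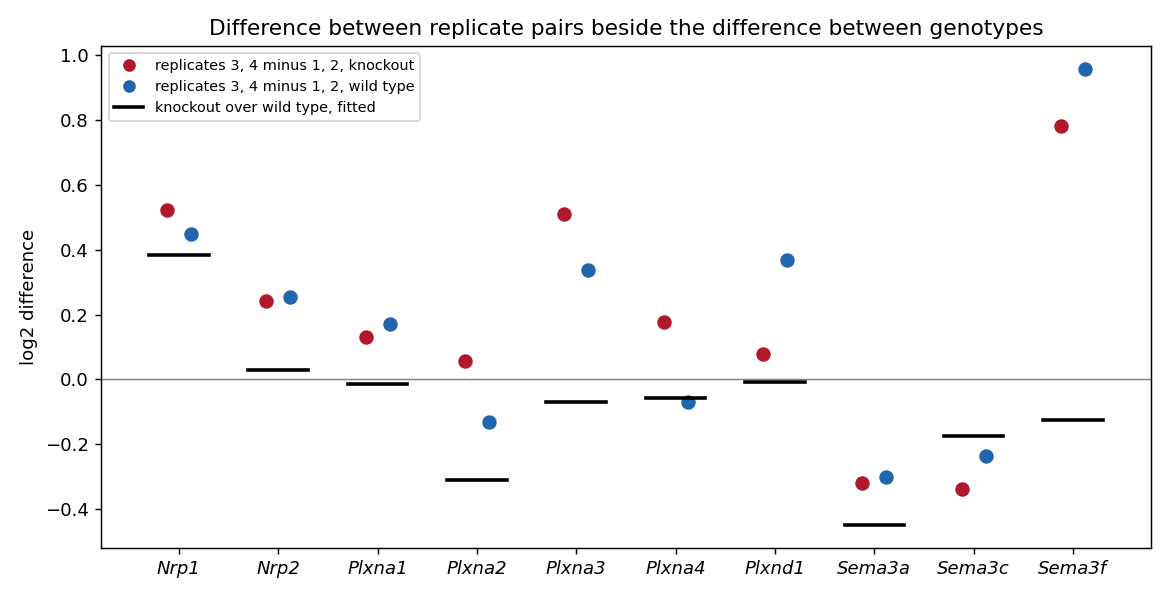
Log2 difference of replicates 3 and 4 from replicates 1 and 2 in knockout (red) and in wild type (blue), beside the fitted log2 change of knockout over wild type (black line), for each gene. For Sema3f the replicate differences are 0.78 in knockout and 0.96 in wild type around a genotype change of −0.12, whereas for Plxna2 the genotype change of −0.31 is the larger.

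The other genes of the pathway gave 1 call. Of 65 further gene symbols in 5 lists, of which Vegfd and Figf name the same gene, 62 were in the table and tested, 1 was higher and none lower in knockout, beside 0.586% of all genes higher and 0.896% lower. The gene was Sema3e, a class 3 semaphorin that is known to bind plexin-D1 without a neuropilin. It was at 22.6, 18.9, 16.0 and 21.4 CPM in knockout and at 11.6, 8.46, 10.7 and 11.9 CPM in wild type, without overlap. Sema3e rose to 184.5% of wild type (95% interval 148% to 230%), a log2 change of 0.88 (SE 0.14, edgeR adjusted p = 0.012), and passed the test without any 1 library (highest adjusted p 0.0498, without wild-type replicate 3). Within replicates 3 and 4 alone its change was 0.73 (edgeR adjusted p = 0.073). Plxnd1, its receptor, showed no change of that size, with an upper interval bound of 124.5% of wild type.

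The other lists held no called gene on genotype alone. An unadjusted edgeR p under 0.05 was found for 0 of 3 plexins, 0 of 13 semaphorins and 1 of 12 co-receptor and VEGF genes. It was also found for 3 of 30 intracellular genes and, with Sema3e, for 1 of 4 class 3 semaphorins outside the 10. Of all genes tested 7.69% had such a p. The remaining 3 class 3 semaphorins outside the 10 (Sema3b, Sema3d, Sema3g) had log2 changes between 0.077 and 0.15, and Sema3g was at 4.52 ± 1.87 CPM in knockout and 4.28 ± 1.38 CPM in wild type. Among 3 further plexins, Plxnb1, a receptor of class 4 semaphorins, was at 185 ± 12.3 CPM in knockout and 169 ± 3.41 CPM in wild type, without overlap, but did not pass the test (log2 0.13, SE 0.08). Plxnb2, the most abundant of these by reads, was at 198 ± 57.1 CPM in knockout and 203 ± 52.7 CPM in wild type. The 13 semaphorins of classes 4 to 7 ranged from −0.20 (Sema6c) to 0.23 (Sema6d, at 98.6 ± 22.7 CPM in knockout and 83.7 ± 16.4 CPM in wild type). Of 12 adhesion co-receptors and VEGF genes, Vegfc was the one without overlap, at 2.03 ± 0.233 CPM in knockout and 2.93 ± 0.275 CPM in wild type (log2 −0.52, SE 0.15, edgeR adjusted p = 0.197). Nrcam, an adhesion partner of neuropilin-2, was at 241 ± 47.7 CPM in knockout and 238 ± 39.9 CPM in wild type. Of 30 intracellular genes none was called on genotype alone, and 2 did not overlap between genotypes. These were Mical2 (log2 0.67, SE 0.25) and Rnd1 (log2 0.26, SE 0.10). Such a lack of overlap, also seen for Plxnb1 and Vegfc, was found in 5.98% of all genes. Dpysl4, a collapsin response mediator, was at 169 ± 48.3 CPM in knockout and 140 ± 39.0 CPM in wild type. It was the 1 gene of these 30 that passed with the block (log2 0.27, edgeR adjusted p = 0.027), beside 2.22% of all genes higher. On genotype alone its change was also 0.27 (SE 0.24) and did not pass. Dpysl3, the most abundant of that list by reads, was at 2606 ± 281 CPM in knockout and 2763 ± 284 CPM in wild type.

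**Figure D5:**
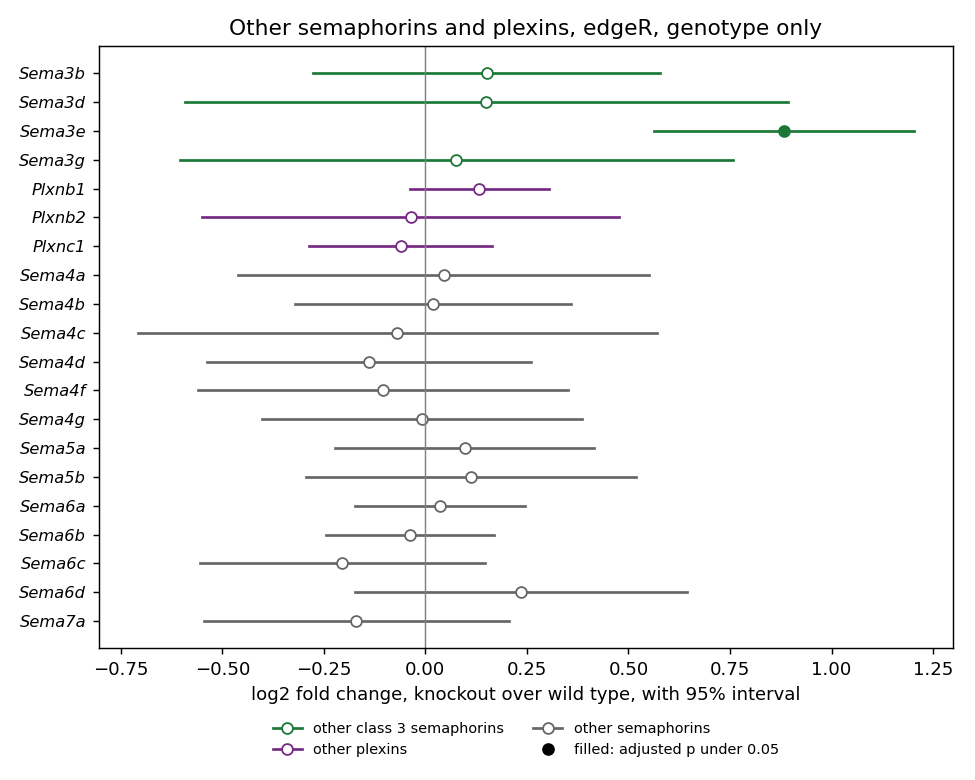
Log2 fold change of knockout over wild type with its 95% interval, not adjusted for the number of genes, for 20 semaphorins and plexins outside the 10, from the edgeR fit on genotype alone. Colours give the list, and the filled symbol is Sema3e (0.88), the gene with an adjusted p under 0.05.

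Markers of cell types were read beside these values. Of 16 markers of the eminences and GABAergic cells, 11 fell in knockout, among them Gad1 (log2 −1.35), Gad2 (−1.49) and Slc32a1 (−3.23), which make and package GABA. With the block the same 11 fell. Of all genes tested, 0.896% were lower on genotype alone and 2.16% with the block. The summed level of the 16 was 420.5 to 500.2 CPM in knockout libraries and 800.3 to 892 CPM in wild-type libraries. Of 12 ventricular zone progenitor markers none was called on genotype alone. With the block 4 of the 12 were higher (Sox2, Hes5, Sox9 and Notch1), beside 2.22% of all genes. The sum of the 12 was 3199 to 3848 CPM in knockout and 2569 to 3076 CPM in wild type. The part of these shifts in the values of Sema3a, Plxna2 and Nrp1 was not tested. Of 17 markers of cortical glutamatergic cells none was called, with sums of 988 to 1144 CPM in knockout and 884 to 1086 CPM in wild type. None of 18 endothelial, 12 pericyte and mesenchyme, 12 microglial and 6 erythroid genes was called on genotype alone. With the block Mrc1, 1 of the 12 microglial genes, was higher (log2 0.94, edgeR adjusted p = 0.031), beside 2.22% of all genes. On genotype alone its change was 1.06 (edgeR adjusted p = 0.36). The endothelial sum was 232 to 333 CPM in knockout and 249.97 to 351 CPM in wild type, the pericyte and mesenchyme sum 101 to 121 CPM in knockout and 97.7 to 119 CPM in wild type, the microglial sum 83.9 to 93.3 CPM in knockout and 77.3 to 91.9 CPM in wild type, and the erythroid sum 1434 to 2059 CPM in knockout and 1691 to 1922 CPM in wild type. At an unadjusted edgeR p under 0.05 stood 3 of the 12 progenitor markers, 1 of the 12 microglial genes and 0 of the glutamatergic, endothelial, pericyte and erythroid genes. Of all genes tested 7.69% did. None of the 3 defining markers of any of these lists was at 0 in all libraries.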

How the data were processed

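RNA of ganglionic eminences was sequenced from 4 knockout and 4 wild-type libraries. The authors deposited unnormalized whole-read counts, 1 row for each gene symbol. Reads were aligned with STAR 2.4.2a to mm9, per the submitters' processing notes. No counting tool or strand setting is named by the labels or headers. The labels call the RNA polyA but name a kit for ribosome-depleted total RNA. The same table holds log2 values (a fold change and a mean CPM), a likelihood ratio score and p-values from the submitters' own contrast of the genotypes, per the file headers.

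Counts were tested with edgeR 4.0.16 (quasi-likelihood, TMM, filterByExpr at a minimum count of 10, R 4.3.3) across 14510 genes, with Benjamini-Hochberg adjustment at 0.05. On simulated data the same procedure on genotype alone recovered 2% of 50 genes changed 1.25-fold and 32% of 50 changed 1.5-fold. It recovered 74% of 50 changed 2-fold and 100% of 50 changed 4-fold, with 10 false calls. The simulated libraries had no difference between replicate pairs. Intervals are 95% and not adjusted for the number of genes. Alternatives were RLE size factors, library totals, other filters, DESeq2 1.42.0, limma 3.58.1 with voom, the replicate number as a block, replicates 1 and 2 or 3 and 4 alone, and each library left out. A term for these replicate pairs and its interaction with genotype were added after seeing the data. The block pairs libraries by number, and the labels say only the number. Deviations of same-numbered libraries from their group means correlated over genes at 0.155 to 0.482 (4 of 4 pairs above 0.1). Of 8 libraries, 4 correlated best with their own number, all of them replicates 3 and 4. Knockout replicate 2 correlated at 0.603 with wild-type replicate 1 and at 0.293 with its own number. Knockout replicate 1 correlated at 0.394 with wild-type replicate 2 and at 0.155 with its own number. Replicates 3 and 4 differ from 1 and 2 in both genotypes, so correlations above 0.1 cannot show that single numbers match.

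Nothing in the labels says that libraries came from separate litters, so p-values measure the spread between these libraries. Per-library depth limits precision, and all 10 genes passed the filter. The members, lists and tests were chosen with earlier results of these data known. Named are all 10 genes, Dlx1 and Dlx2, called genes and, as an example, an uncalled gene among the most abundant uncalled ones of each of the 5 pathway lists. The lists are other class 3 semaphorins, other plexins, other semaphorins, co-receptors with VEGF ligands, and intracellular signalling. Plxnb1, Vegfc, Mical2, Rnd1, Dpysl4, Sema6c and Mrc1 were named after their values were seen. A result on 1 marker gene is not reported here.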

Additional observations from a re-analysis of the deposited data

How the results depend on the processing

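Over all genes, 85 were higher and 130 lower in knockout on genotype alone. These counts were 322 and 313 with the replicate block, 333 and 336 with a term for the replicate pairs, 230 and 241 with DESeq2, and 178 and 202 in replicates 1 and 2 alone. They ranged from 50 to 66 higher and from 92 to 121 lower when 1 library was left out. Of the 10 genes 0 were called on genotype alone and 0 without any 1 library. With the replicate block and with the pair term 3 were called (1 higher, 2 lower), with DESeq2 and in replicates 1 and 2 alone 2 (both lower), and in replicates 3 and 4 alone 1 (lower). The block changed no other call among the 10. Nrp1 was called with the block (0.37) and the pair term (0.38). Plxna2 was called with DESeq2 (−0.31), the block (−0.31), the pair term (−0.31) and in replicates 1 and 2 (−0.40). Sema3a was called with DESeq2 (−0.45), the block (−0.45), the pair term (−0.45), in replicates 1 and 2 (−0.44) and in replicates 3 and 4 (−0.46). The calls gained with the block and the pair term go with smaller errors around like changes. For the other settings the cause was not tested.

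Uncalled changes near 0 turned their sign. Plxna1 was at 0.0055 with library totals and 0.012 in replicates 1 and 2. Plxna3 was at 0.0083 and Plxna4 at 0.061 in replicates 3 and 4. Plxnd1 was at 0.0081 with library totals, 0.0046 with voom, 0.0032 with the block, 0.0049 with the pair term and 0.15 in replicates 1 and 2. Sema3f was at 0.0014 in replicates 1 and 2. With 1 library left out, log2 changes ranged from 0.24 to 0.48 for Nrp1, −0.060 to 0.089 for Nrp2, −0.056 to 0.056 for Plxna1, −0.36 to −0.28 for Plxna2, −0.20 to 0.027 for Plxna3, −0.12 to −0.0082 for Plxna4, −0.091 to 0.13 for Plxnd1, −0.50 to −0.39 for Sema3a, −0.24 to −0.11 for Sema3c and −0.28 to 0.14 for Sema3f.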
